A study of Drosophila melanogaster with 8 samples.

Results

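The 33 genes described here encode the proteasome of Drosophila melanogaster: 7 subunits of the alpha ring, 7 of the beta ring, 6 ATPases, 12 other subunits of the regulatory particle, and the assembly factor Pomp. They were chosen by name, with earlier results of these data known. They are the rows of the deposited table whose FlyBase gene identifier carries one of these symbols, and they made up 33 of 18354 gene rows. All 33 passed the filter on low values, a mean over the libraries of 10 normalized counts or more, and were tested. RNA was sequenced from wing imaginal discs, the larval epithelia that form the adult wing and thorax, in a series about the transcription factor Xrp1 and faulty splicing. The first group of 4 libraries, nub>mRFP; ecd-RNAi, carried the nub-Gal4 driver, a red fluorescent protein and an RNAi construct against ecd, a gene needed both to splice pre-mRNA and to make the hormone ecdysone. The control group of 4 libraries, nub>mRFP, carried the driver and the fluorescent protein alone. In both groups the driver is active only in the pouch and part of the hinge, so every disc also held cells outside its domain. Larvae of the third instar were in both groups kept at 25 °C and dissected on day 7 after egg laying, with 150 discs pooled per library.

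The proteasome degrades proteins that carry ubiquitin chains. Its core is a barrel of stacked rings: outer alpha rings form the gate, and inner beta rings carry the proteolytic sites. A regulatory particle caps the barrel. In that cap, the base holds a ring of ATPases that unfolds the substrate, and the lid holds the enzyme that removes the ubiquitin chain. Subunits are needed in fixed proportions, and in flies, as in mammals, the genes of the whole complex can be induced together by the transcription factor encoded by cnc when proteasome activity falls short. In wing discs the complex is known for setting the level of short-lived regulators of growth and patterning.

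Most proteasome transcripts were lower in the libraries labelled ecd-RNAi, by 0.11 to 0.60 on the log2 scale in the genes that passed. Of the 33 genes 27 fell, 0 rose and 6 did not pass (limma on log2 of the normalized count plus 1, Benjamini-Hochberg adjusted p under 0.05). Over all 9380 genes tested, 31.7% fell and 30.8% rose, 62.5% in all. The median log2 fold change of the 33 genes was -0.32, and that of all tested genes was 0.00. In 25 of the 33 genes every ecd-RNAi library lay below every control library, which held for 29.2% of all tested genes. Because the members were chosen with earlier results known, these contrasts with all tested genes are descriptions. The members not passing were Prosalpha1, Prosbeta7, Rpt1, Rpt4, Rpt6 and Rpn2. These are RNA levels of whole discs, in which fewer cells of a type and less RNA per cell cannot be told apart. With quantile normalization 17 of the 33 fell and 1, Rpn2, rose. The calls then lost were those of Prosalpha2, Prosalpha3, Prosalpha6, Prosbeta1, Prosbeta5, Rpt5, Rpn6, Rpn7, Rpn8 and Rpn13. The authors' deposited table calls 27 of the 33 lower, and all 27 are the genes called here.

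**Figure D1:**
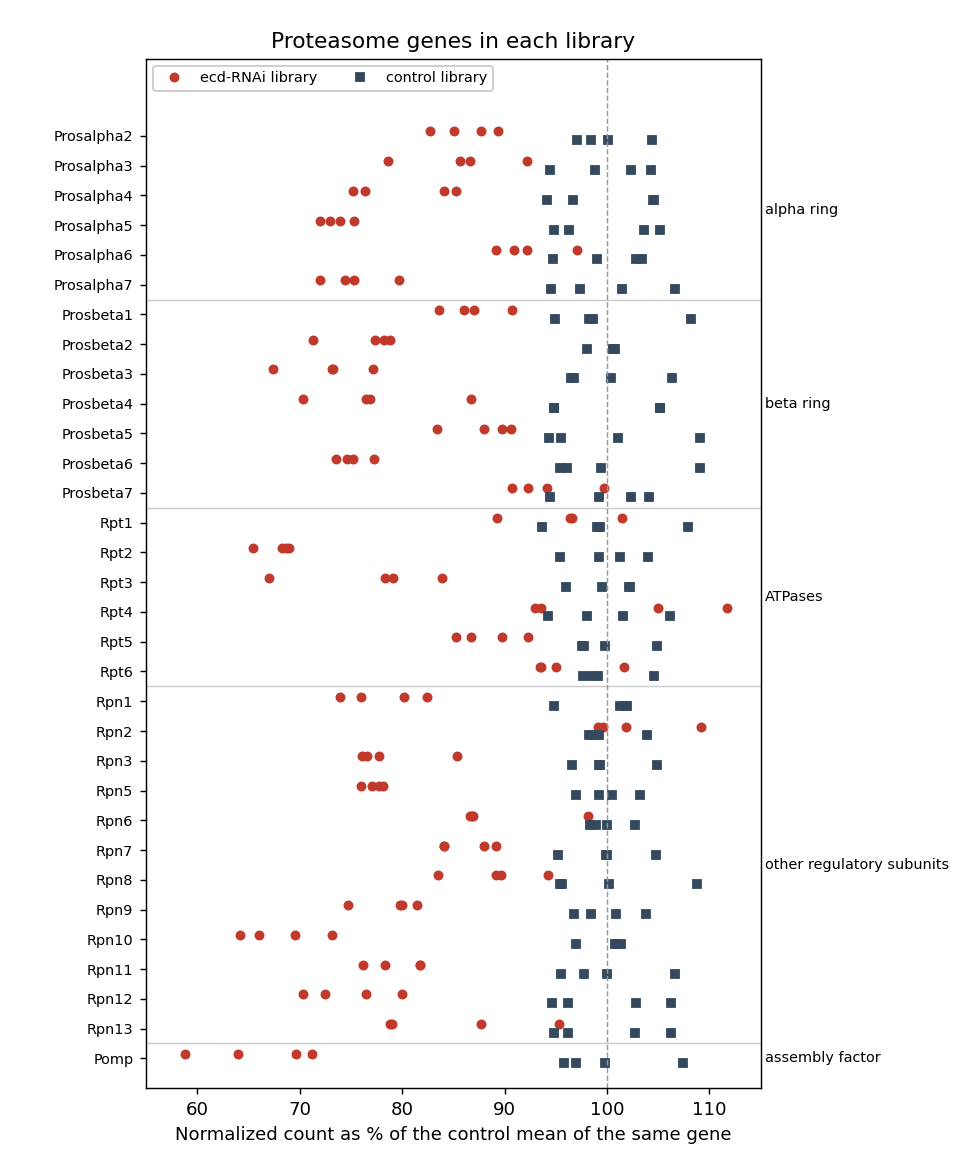
Normalized count of each proteasome gene in each library, as a percentage of that gene's control mean (horizontal axis), for 4 ecd-RNAi libraries (circles) and 4 control libraries (squares); Prosalpha1 is left out because its control values run from 0 to 513. In 25 of the genes shown the circles lie to the left of every square, and the symbols mix for Prosalpha6, Prosbeta7, Rpt1, Rpt4, Rpt6, Rpn2 and Rpn13.

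Normalized counts of the 33 genes summed to 73836, 77265, 70678 and 71783 in ecd-RNAi replicates 1 to 4, against 90104, 86225, 86157 and 91509 in control replicates 1 to 4. Relative to control libraries their mean sum fell by 17.1%, while that of all protein-coding genes fell by 2.16%. As a share of protein-coding signal the proteasome genes took 0.472% ± 0.0085 in ecd-RNAi libraries and 0.557% ± 0.0166 in control libraries (SD, n = 4), and the groups did not overlap. As a share of all gene signal, which includes ribosomal RNA, they took 0.267% ± 0.0179 in ecd-RNAi libraries and 0.243% ± 0.0118 in control libraries. On that scale the mean was higher in ecd-RNAi libraries and the groups overlapped, at 0.242% to 0.280% in ecd-RNAi and 0.230% to 0.258% in control libraries. Of the signal of all rows, transposon insertions included, ribosomal RNA made up 29.4% ± 3.93 in ecd-RNAi libraries and 51.0% ± 2.09 in control libraries. Insertion rows made up 7.82% ± 1.69 of that signal in ecd-RNAi libraries and 0.379% ± 0.0473 in control libraries.

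The labels were checked on ecd (FBgn0000543, chromosome 3L, 2263581 to 2265857, minus strand of BDGP6), which stood at 1416, 1208, 1307 and 1462 normalized counts in ecd-RNAi replicates 1 to 4 and at 1052, 1015, 1047 and 998 in control replicates 1 to 4. The targeted transcript was higher in every library labelled ecd-RNAi, against its label (log2 fold change 0.39, SE 0.06, limma adjusted p = 0.000245), so each direction given refers to libraries by their label. Normalized totals ran from 27403900 to 32623600 in ecd-RNAi libraries and from 35111000 to 37879700 in control libraries, at an approximate depth of 31100000 to 37500000 reads in ecd-RNAi and 29500000 to 36500000 reads in control libraries. Markers of the wing disc were present in all libraries, and 10 of 13 fell and 2 rose. Their summed level was 68741 to 73158 normalized counts in ecd-RNAi libraries and 94598 to 98763 in control libraries. Tracheal markers summed to 13546 to 15223 in ecd-RNAi and 19080 to 20294 in control libraries (3 of 5 fell, 1 rose), and those of adult muscle precursors to 2677 to 3154 in ecd-RNAi and 4210 to 4540 in control libraries (4 of 5 fell, 0 rose). Markers of neurons and sensory organs summed to 330 to 429 in ecd-RNAi and 524 to 629 in control libraries (2 of 4 fell, 0 rose). The genes that fell were sens (log2 fold change -2.79, SE 0.16) and ase (-1.89, SE 0.26), while elav (-0.07, SE 0.11) and nSyb (0.13, SE 0.31) did not pass. For salivary gland markers the range was 3.47 to 8.74 in ecd-RNAi and 82.9 to 197 in control libraries, and 3 of the 3 tested of 4 fell, with Sgs3 at 0 in 3 ecd-RNAi libraries. Hemocyte markers ran from 1383 to 2980 in ecd-RNAi and from 1137 to 1543 in control libraries (2 of 6 rose, 0 fell), and fat body markers from 559 to 4425 in ecd-RNAi and from 943 to 6792 in control libraries (1 of 5 fell, 0 rose), with ecd-RNAi replicate 4 and control replicate 2 at the top. Testis markers, all 5 below the filter, summed to 28.8 to 44.1 in ecd-RNAi and 5.15 to 9.01 in control libraries. Of these 5, Mst87F (17.6 ± 4.64 in ecd-RNAi and 1.68 ± 1.95 in control libraries) and dj (12.2 ± 3.55 in ecd-RNAi and 2.25 ± 0.818 in control libraries) were higher without overlap. The testis regulators bam, can and aly stood at 5.1 or less in every library and overlapped between groups. The part of these markers in the proteasome result was not tested. Without ecd-RNAi replicate 4 and control replicate 2, left out after the marker values were seen, 26 of the 33 proteasome genes fell. Fat body markers overlapped between groups, so that count says nothing about the markers that separated them.

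In the alpha ring 6 of 7 genes fell, by 0.11 to 0.44 on the log2 scale, and the ring's summed level was 0.826 times that of controls. Of the alpha genes that passed, the largest change was that of Prosalpha5 (FBgn0016697, chromosome 2R, 17412767 to 17413769, plus strand), a structural subunit of the ring. It had 1756, 1780, 1733 and 1812 normalized counts in ecd-RNAi libraries, against 2494, 2282, 2318 and 2531 in control libraries. All 4 ecd-RNAi values lay below all 4 control values, and the ecd-RNAi values were tightly grouped (log2 fold change -0.44, SE 0.04, limma adjusted p = 7.34e-06). Prosalpha7, which also belongs to the gated outer ring, had 2019, 1907, 1823 and 1884 normalized counts in ecd-RNAi libraries, against 2701, 2395, 2466 and 2569 in control libraries. It fell by 0.41 with no overlap (SE 0.05, limma adjusted p = 3.08e-05). Prosalpha4 fell by 0.32 (SE 0.05), with 2235 to 2532 in ecd-RNAi libraries and 2798 to 3108 in control libraries. Prosalpha2 and Prosalpha3, whose yeast counterparts help to form the gate, fell by 0.21 (SE 0.04) and 0.22 (SE 0.05), each without overlap. With quantile normalization neither passed, at -0.08 and -0.09 (adjusted p = 0.0819 and 0.142).

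Prosalpha6 was the alpha subunit gene with the smallest change that passed. Its values were 2554, 2689, 2471 and 2518 in ecd-RNAi libraries and 2849, 2624, 2742 and 2865 in control libraries, so ecd-RNAi replicate 2 lay above control replicate 2. The fall of 0.11 (SE 0.04, limma adjusted p = 0.0311) was lost without ecd-RNAi replicate 1, 3 or 4 or control replicate 1, 3 or 4 (adjusted p from 0.0546 to 0.0836), and with quantile normalization it stood at 0.02 (adjusted p = 0.634). It was also lost with no mean trend (adjusted p = 0.0585) and on rescaling to equal protein-coding sums (adjusted p = 0.0710). Prosalpha6 passed in 10 of 20 settings.

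Prosalpha1 (FBgn0263121, chromosome 2R, 7827303 to 7828678, minus strand) could not be read in the same way. It had 61.6, 209, 236 and 301 normalized counts in ecd-RNAi libraries, against 295, 513, 0 and 80.0 in control libraries. The groups overlapped throughout, and the log2 fold change of 1.56 with an SE of 1.64 (limma adjusted p = 0.432) rested on control replicate 3, which is listed at 0: without it the fold change was -0.40 (adjusted p = 0.639). Its level per kilobase of transcript was the lowest of all 33 genes, 229 in controls.

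Its paralog Prosalpha1R (FBgn0050382, chromosome 2R, 7830413 to 7831771, minus strand), 1734 bp away on the same strand, held most of the signal of the pair. Prosalpha1R had 2971, 2802, 2611 and 2578 normalized counts in ecd-RNAi libraries, against 3717, 3297, 3744 and 4120 in control libraries (log2 fold change -0.44, SE 0.07, limma adjusted p = 0.000289). Prosalpha1 took between 2.03% and 10.5% of the pair's sum in ecd-RNAi libraries and between 0% and 13.5% in control libraries. The sum of both genes was 3033, 3011, 2847 and 2879 in ecd-RNAi libraries, against 4012, 3810, 3744 and 4200 in control libraries. Summed, the pair did not overlap between groups and fell by 0.42 (SE 0.04, limma adjusted p = 1.35e-05), a combination chosen after the values were seen, and 28 of the 33 entries then fell. The sources used here do not say how the authors' counting divided reads between these genes, so the value of each gene alone is uncertain.

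**Figure D2:**
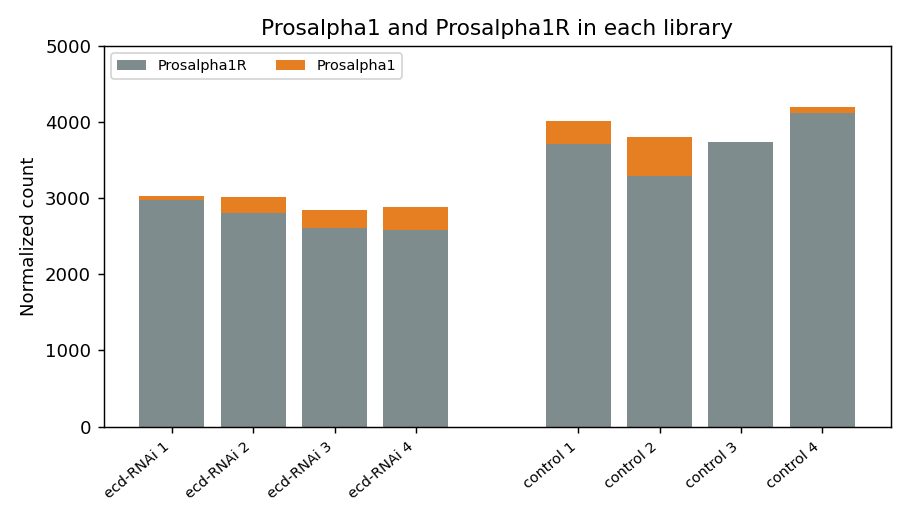
Normalized count (vertical axis, from 0) of Prosalpha1R and, stacked on it, Prosalpha1 in each of the 4 ecd-RNAi and 4 control libraries. The stacks reach 2847 to 3033 in ecd-RNAi libraries and 3744 to 4200 in control libraries, while the Prosalpha1 portion varies between libraries of both groups.

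In the beta ring 6 of 7 genes fell, with a median log2 fold change of -0.37, and the ring's sum was 0.816 times that of controls. The genes of all 3 proteolytic subunits fell. Prosbeta2, which cleaves after basic residues, had 1925, 1948, 1776 and 1962 normalized counts in ecd-RNAi libraries, against 2443, 2510, 2505 and 2504 in control libraries. Its groups lay far apart relative to their spread (log2 fold change -0.39, SE 0.04, limma adjusted p = 1.05e-05). Prosbeta1, which cleaves after acidic residues, had 2024, 1941, 1866 and 1921 in ecd-RNAi libraries, against 2201, 2118, 2193 and 2415 in control libraries, a fall of 0.20 (SE 0.05, adjusted p = 0.00326). Prosbeta5, which cleaves after hydrophobic residues, had 2670, 2642, 2457 and 2592 in ecd-RNAi libraries, against 3212, 2777, 2814 and 2977 in control libraries, a fall of 0.18 (SE 0.05, adjusted p = 0.00925). No ecd-RNAi library reached a control value for either gene. Both calls were lost with quantile normalization, at -0.09 for Prosbeta1 and -0.05 for Prosbeta5 (adjusted p = 0.0969 and 0.445), and that of Prosbeta2 was kept.

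The beta subunits without proteolytic sites spread more widely. Prosbeta3 (FBgn0026380, chromosome 3R, 9005313 to 9006226, minus strand) fell by 0.46 on the log2 scale (SE 0.05, limma adjusted p = 1.76e-05). Its normalized counts were 1890, 1990, 1738 and 1886 in ecd-RNAi libraries and 2489, 2590, 2496 and 2742 in control libraries, with no overlap. Prosbeta6 fell by 0.41 and Prosbeta4 by 0.37 (SE 0.05 and 0.07), each with no overlap. Prosbeta6 had 1966 to 2065 normalized counts in ecd-RNAi libraries and 2550 to 2914 in control libraries, and Prosbeta4 had 1289 to 1589 in ecd-RNAi libraries and 1738 to 1928 in control libraries. Prosbeta7 did not pass. It had 2228, 2361, 2147 and 2184 in ecd-RNAi libraries and 2423, 2235, 2348 and 2464 in control libraries, with ecd-RNAi replicate 2 inside the control range (log2 fold change -0.09, SE 0.04, limma adjusted p = 0.108). Without ecd-RNAi replicate 2 or control replicate 2 it passed, at -0.11 (adjusted p = 0.0407 and 0.046).

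**Figure D3:**
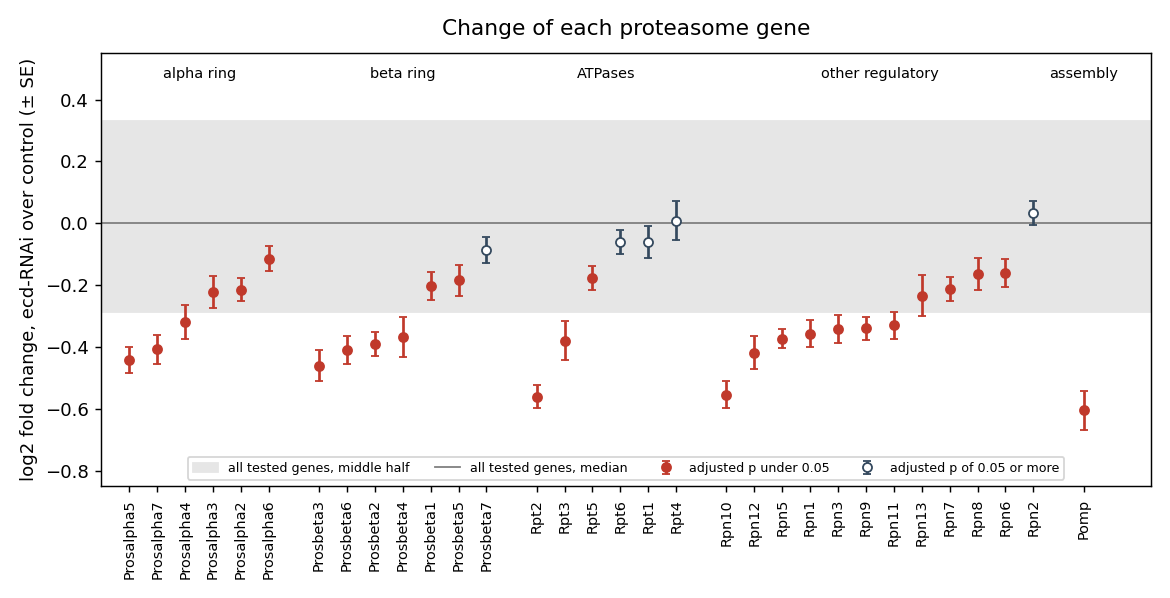
Log2 fold change of each proteasome gene, ecd-RNAi over control, with its standard error (vertical axis), grouped by place in the complex; filled circles passed an adjusted p of 0.05, open circles did not, and the grey band holds the central 50% of all 9380 tested genes (-0.29 to 0.33). Prosalpha1 (1.56, SE 1.64) is not drawn; the lowest points are Pomp at -0.60, Rpt2 at -0.56 and Rpn10 at -0.55, and the ATPases hold both one of the lowest points and 3 of the 5 open circles.

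Of the 6 ATPases of the base 3 fell and 3 did not pass, and their sum was 0.861 times that of controls. Rpt2 (FBgn0015282, chromosome 3R, 23929873 to 23931558, minus strand), whose tail in yeast helps to open the gate of the core, had 2407, 2417, 2295 and 2393 normalized counts in ecd-RNAi libraries, against 3481, 3552, 3348 and 3649 in control libraries. Even the highest ecd-RNAi value lay far below the lowest control value (log2 fold change -0.56, SE 0.04, limma adjusted p = 4.78e-07). Rpt3 had 2047, 2193, 2066 and 1750 in ecd-RNAi libraries, against 2600, 2670, 2509 and 2672 in control libraries, a fall of 0.38 (SE 0.06, adjusted p = 0.000429). Rpt5, whose yeast counterpart also acts on the gate, fell by 0.18 (SE 0.04, adjusted p = 0.00264), with 2129 to 2304 in ecd-RNAi libraries and 2434 to 2617 in control libraries. It did not pass with quantile normalization, at -0.05 (adjusted p = 0.30).

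The other ATPase genes overlapped between groups. Rpt4 had 2397, 2552, 2136 and 2123 normalized counts in ecd-RNAi libraries and 2424, 2153, 2238 and 2319 in control libraries (log2 fold change 0.01, SE 0.06, limma adjusted p = 0.919). Rpt1 had 2784, 2933, 2790 and 2579 in ecd-RNAi libraries and 2862, 2705, 2871 and 3118 in control libraries (log2 fold change -0.06, SE 0.05, adjusted p = 0.340). Rpt6 had 1850, 2010, 1879 and 1849 in ecd-RNAi libraries and 2068, 1960, 1949 and 1932 in control libraries (log2 fold change -0.06, SE 0.04, adjusted p = 0.213). On recentring every library on its median, Rpt1 and Rpt6 passed at -0.15 each (adjusted p = 0.0229 and 0.0072) and Rpt4, at -0.08, did not.

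During assembly in yeast and mammals the ATPases join as fixed pairs, Rpt1 with Rpt2, Rpt3 with Rpt6 and Rpt4 with Rpt5. With the deposited normalization each pair held a gene that fell and a gene that did not pass. That split depended on the normalization. On recentring Rpt1 and Rpt6 also fell (-0.15 each), and with quantile normalization Rpt5 did not pass (-0.05). The ratio of levels per kilobase of Rpt2 to Rpt1 was 0.806, 0.769, 0.767 and 0.865 in ecd-RNAi libraries, against 1.13, 1.22, 1.09 and 1.09 in control libraries. That of Rpt3 to Rpt6 was 1.00, 0.986, 0.994 and 0.856 in ecd-RNAi libraries, against 1.14, 1.23, 1.16 and 1.25 in control libraries. Both ratios were lower in every ecd-RNAi library than in any control library, whereas that of Rpt5 to Rpt4 overlapped, at 0.869 ± 0.068 in ecd-RNAi and 0.985 ± 0.044 in control libraries (SD, n = 4). The pairing was looked at after the single genes' values were known, and these ratios are a description with no test.

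**Figure D4:**
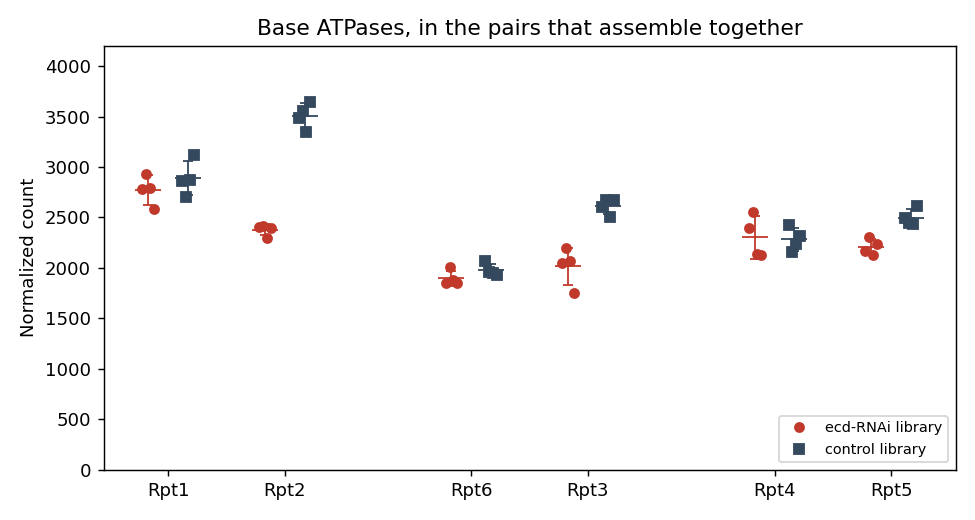
Normalized counts (vertical axis, from 0) of the 6 base ATPase genes, set side by side in the pairs that assemble together, in 4 ecd-RNAi libraries (circles) and 4 control libraries (squares), with the mean and its SD. Rpt2 and Rpt3 separate fully between groups, and their partners Rpt1 and Rpt6 overlap.

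Of the 12 other regulatory subunits 11 fell, and all 8 lid genes named Rpn were among them, by 0.16 to 0.42 on the log2 scale. Rpn12 (FBgn0028693, chromosome 3L, 16583028 to 16584022, plus strand), which in yeast is the last subunit to join the lid, had 1682, 1759, 1545 and 1593 normalized counts in ecd-RNAi libraries, against 2337, 2080, 2116 and 2262 in control libraries. It had the lowest fold change of these 8, -0.42 (SE 0.05, limma adjusted p = 6.23e-05), and its groups were well separated. Rpn5 had 2914, 2955, 2873 and 2939 in ecd-RNAi libraries, against 3800, 3754, 3669 and 3905 in control libraries, a fall of 0.37 (SE 0.03, adjusted p = 2.86e-06). Rpn11, the metalloprotease that cuts off the ubiquitin chain, had 1821, 1821, 1698 and 1745 in ecd-RNAi libraries, against 2179, 2128, 2229 and 2376 in control libraries, a fall of 0.33 (SE 0.04, adjusted p = 8.11e-05). Its partner in the lid, Rpn8, fell less, by 0.16 (SE 0.05, adjusted p = 0.0192), with 2131, 2240, 1984 and 2119 in ecd-RNAi libraries and 2586, 2268, 2271 and 2380 in control libraries. The Rpn8 call was lost without ecd-RNAi replicate 3 (adjusted p = 0.055) and with quantile normalization, at -0.04 (adjusted p = 0.491).

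The remaining lid genes encode scaffold subunits arranged like a horseshoe. Rpn3 and Rpn9 both fell by 0.34 (SE 0.04 each). Rpn3 had 2190 to 2457 normalized counts in ecd-RNAi libraries and 2781 to 3019 in control libraries, and Rpn9 had 2063 to 2249 in ecd-RNAi libraries and 2671 to 2866 in control libraries. Rpn7 fell by 0.21 (SE 0.04), with 2225 to 2359 in ecd-RNAi and 2521 to 2773 in control libraries, but stood at -0.08 with quantile normalization (adjusted p = 0.113). Rpn6, which braces the lid against the core, had 3005, 3397, 2997 and 3007 in ecd-RNAi libraries and 3423, 3461, 3404 and 3557 in control libraries. Its ecd-RNAi replicate 2 stood apart from the other ecd-RNAi libraries and just below the lowest control (log2 fold change -0.16, SE 0.04, limma adjusted p = 0.0103). The Rpn6 call was lost without ecd-RNAi replicate 4 and control replicate 2 together (adjusted p = 0.0521) and with quantile normalization, at -0.02 (adjusted p = 0.621).

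Outside the lid, the ubiquitin receptors and the scaffold that carries them took different courses. Rpn10 (FBgn0015283, chromosome 3L, 21537000 to 21538582, plus strand), which binds ubiquitin chains, had 1831, 1926, 1740 and 1690 normalized counts in ecd-RNAi libraries, against 2660, 2554, 2654 and 2670 in control libraries. It fell by 0.55 (SE 0.04, limma adjusted p = 2.17e-06), and no values overlapped. Rpn13, another receptor, had 1903, 2068, 1714 and 1710 in ecd-RNAi libraries, against 2306, 2057, 2088 and 2229 in control libraries. It fell by 0.23 (SE 0.07, adjusted p = 0.0107), although ecd-RNAi replicate 2 lay above control replicate 2, and stood at -0.13 with quantile normalization (adjusted p = 0.0842).

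Rpn1, the large base subunit that docks shuttle proteins and a deubiquitinase, had 4122, 4236, 3903 and 3801 in ecd-RNAi libraries, against 5241, 5234, 4874 and 5206 in control libraries. It fell by 0.36 (SE 0.04, adjusted p = 4.33e-05). Rpn2, the related scaffold to which Rpn13 binds, had 4835, 5327, 4857 and 4966 in ecd-RNAi libraries and 4841, 4809, 4792 and 5068 in control libraries. The Rpn2 groups overlapped (log2 fold change 0.03, SE 0.04, limma adjusted p = 0.472), and Rpn2 rose by 0.14 with quantile normalization (adjusted p = 0.00635).

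Pomp (FBgn0032884, chromosome 2L, 20787656 to 20789098, plus strand), the chaperone that guides the beta ring into place and is degraded by the finished core, had the lowest fold change of the 33 genes. It had 1461, 1493, 1342 and 1234 normalized counts in ecd-RNAi libraries, against 2255, 2035, 2011 and 2095 in control libraries. All ecd-RNAi values were lower, at 1382 ± 118 against 2099 ± 110 (SD, n = 4; log2 fold change -0.60, SE 0.06, limma adjusted p = 1.64e-05). Exons of vari, on the opposite strand, overlap 437 bp, or 40.02%, of the exons of Pomp, and the sources used here do not say whether the authors' counting used strand. The vari gene itself fell by 0.25 (SE 0.03, limma adjusted p = 5.75e-05), at 3397 ± 97.8 in ecd-RNAi and 4051 ± 58.1 in control libraries.

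Overlaps of this kind touched 14 of the 33 genes, with 15 neighbours, all on the opposite strand. Apart from Pomp the shared stretch was at most 13.0% of a member's exons. Among these neighbours 6 fell, 3 rose, 5 did not pass and 1 was not tested. CG31142, which shares 116 bp of exon with Rpt2, rose by 0.75 (SE 0.06, limma adjusted p = 2.1e-06), at 404 ± 16.4 in ecd-RNAi and 241 ± 7.29 in control libraries, while Rpt2 fell. Aos1, an activating enzyme subunit of the SUMO pathway that shares 24 bp with Prosalpha2, fell by 0.62 (SE 0.04, limma adjusted p = 7.22e-07), at 1791 ± 33.1 in ecd-RNAi and 2758 ± 150 in control libraries. The photolyase gene phr, which shares 17 bp with Prosalpha1, rose by 1.56 (SE 0.11, limma adjusted p = 9.94e-07).

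Levels per kilobase of the longest transcript were similar across the complex. In controls they ran from 1408 for Rpt6 to 2910 for Prosalpha3, leaving out Prosalpha1, and the coefficient of variation over the other 32 genes was 22.7% in ecd-RNAi libraries and 23.1% in control libraries. The order in ecd-RNAi libraries resembled that in control libraries (Spearman rho 0.856 over the 32 genes, as a description). By group medians core genes stood highest, although Prosalpha1 was last of all and Prosbeta7, at 1949 in controls, lay below Rpn12, Rpt2 and Rpn5: in controls the median level per kilobase was 2595 for the alpha ring, 2586 for the beta ring, 1621 for the ATPases and 1797 for the other regulatory subunits. Of the 32 neighbouring steps in the control order, 25 were smaller than the larger standard deviation of the genes compared, so most neighbours in the order do not differ beyond their spread. Prosalpha3 (2910 ± 127), Prosalpha2 (2859 ± 90.5), Prosbeta6 (2831 ± 178) and Prosbeta3 (2822 ± 129) at the top are not separated by these data. In ecd-RNAi libraries Prosalpha3 (2496 ± 162) and Prosalpha2 (2464 ± 83.7) were again the highest, followed by Prosalpha6 (2391 ± 87.5).

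The genes are spread over 5 chromosome arms, and the share that fell was 5 of 5 on 2L, 8 of 10 on 2R, 5 of 5 on 3L, 7 of 9 on 3R and 2 of 4 on X. Among all tested protein-coding genes 569 of 1593 fell on 2L, 570 of 1737 on 2R, 544 of 1676 on 3L, 660 of 2086 on 3R and 441 of 1450 on X. The closest members, Rpn9 and Rpt5 on 3R, lie 19413 bp apart, and Rpn12 and Prosbeta6 on 3L lie 25377 bp apart. Since RNAi was directed at a splicing factor, the members were also sorted by introns. They are short genes with few introns, at most 4, and 27 of them hold 2 or fewer. Of the 4 without an intron, Prosbeta3, Rpt1, Rpn7 and Rpn12, 3 fell, with a median log2 fold change of -0.32. Of the 6 with 1 intron 6 fell (median -0.38), and of the 17 with 2 introns 14 fell (median -0.23). Of the 2 with 3 introns 1 fell, and of the 4 with 4 introns 3 fell. Among all tested protein-coding genes 261 of 862 without introns fell and 293 rose, and of the 1382 with 1 intron 359 fell and 424 rose. Of the 1380 with 2 introns 371 fell and 458 rose, of the 1197 with 3 introns 360 fell and 393 rose, and of the 804 with 4 introns 247 fell and 251 rose. Over the 32 genes without Prosalpha1 the log2 fold change had a Pearson r of 0.25 with the number of introns, 0.28 with transcript length and -0.29 with the control level per kilobase, given as descriptions of genes measured in the same 8 libraries.

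Genes that work with the proteasome moved in both directions. Over 6 lists, 17 of 43 tested genes fell and 13 rose, against 27 and 0 of the 33 proteasome genes. With 31.7% lower and 30.8% higher among all tested genes, these counts are no result particular to the lists. Among 7 activators, regulators and bound deubiquitinases 3 fell and 3 rose. The genes that fell, Sem1, Uch-L5 and Usp14, encode parts or partners of the regulatory particle. Sem1, the smallest lid subunit, had 843, 838, 796 and 978 normalized counts in ecd-RNAi libraries, against 1248, 1257, 1106 and 1263 in control libraries (log2 fold change -0.50, SE 0.07, limma adjusted p = 0.000127). Uch-L5, the deubiquitinase held by Rpn13, had 1614, 1509, 1504 and 1531 in ecd-RNAi libraries, against 2143, 2066, 2154 and 2119 in control libraries (log2 fold change -0.46, SE 0.04, adjusted p = 1.69e-06). Usp14, the deubiquitinase held by Rpn1, fell by 0.30 (SE 0.05, adjusted p = 0.000434).

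REG, an activator that caps the core in place of the regulatory particle, had 4731, 4891, 4881 and 4942 normalized counts in ecd-RNAi libraries, against 3829, 3586, 3519 and 3789 in control libraries. All 4 ecd-RNAi values lay above all control values (log2 fold change 0.40, SE 0.04, limma adjusted p = 5.33e-06). PI31, a regulator of the core and of its transport, rose by 0.27 (SE 0.04, adjusted p = 0.000472). The gene ntc, whose F-box protein binds PI31, was at 249, 192, 239 and 217 in ecd-RNAi libraries and at 124, 195, 188 and 129 in control libraries, with overlap. Its rise of 0.52 (SE 0.16, adjusted p = 0.0186) was lost without ecd-RNAi replicate 1 or control replicate 1 or 4 (adjusted p from 0.0506 to 0.054) and with quantile normalization, at 0.30 (adjusted p = 0.130). The base chaperone gene CG9588 did not pass (log2 fold change 0.01, SE 0.05).

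Among TER94, the p97 unfoldase, its cofactors and the shuttle proteins, 2 of 9 fell and 4 rose, or 4 fell and 2 rose on recentring. The cofactor gene p47 had 1234, 1133, 1127 and 1087 normalized counts in ecd-RNAi libraries, against 1926, 1693, 1764 and 1880 in control libraries, a fall of 0.66 (SE 0.05, limma adjusted p = 2.46e-06). Faf2, a membrane-bound cofactor, rose by 0.40 (SE 0.04) and the shuttle gene rngo by 0.33 (SE 0.04), while another shuttle gene, Ubqn, fell by 0.30 (SE 0.05). TER94 itself rose by 0.20 (SE 0.05, adjusted p = 0.00671), at 13781, 15447, 13637 and 12791 in ecd-RNAi libraries and 11830, 12162, 11968 and 12249 in control libraries, and casp, a further cofactor, by 0.20 (SE 0.04). Both calls were lost on recentring.

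Of 13 genes for ubiquitin, its activating enzyme and conjugating enzymes 5 fell and 4 rose, or 3 and 5 with quantile normalization. Ubc6, the counterpart of yeast Rad6, had 2976, 3122, 3147 and 3120 normalized counts in ecd-RNAi libraries, against 1804, 1951, 1857 and 1869 in control libraries (log2 fold change 0.73, SE 0.04, limma adjusted p = 8.07e-08). It had the largest change of this list. The polyubiquitin genes Ubi-p5E and Ubi-p63E rose by 0.37 and 0.28 (SE 0.04 each), while the conjugating enzyme gene eff fell by 0.28 (SE 0.04). Also higher was RpL40, a ubiquitin fusion to a ribosomal protein. Also lower were ben, Ubc10, the activating enzyme gene Uba1, and RpS27A, another ribosomal fusion. The RpS27A call was lost without ecd-RNAi replicate 2 or 3 or control replicate 1 or 4 and on rescaling to equal protein-coding sums (adjusted p = 0.0981), and those of ben and Uba1 with quantile normalization, at -0.06 and -0.05 (adjusted p = 0.223 and 0.149). Reads of polyubiquitin genes share repeated sequence, so the split between Ubi-p63E and Ubi-p5E is uncertain.

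Of the 4 genes tied to transcriptional control of the proteasome 1 fell and 0 rose. The activator gene cnc had 4597, 4843, 4644 and 4347 normalized counts in ecd-RNAi libraries and 4214, 4790, 4563 and 4210 in control libraries, with overlap (log2 fold change 0.05, SE 0.05, limma adjusted p = 0.384). It rose by 0.17 with quantile normalization (adjusted p = 0.00961) and was at -0.04 on recentring. Its partner maf-S (0.09, SE 0.05) and its inhibitor Keap1 (0.00, SE 0.07) did not pass, though maf-S rose by 0.12 when libraries were rescaled to equal protein-coding sums (adjusted p = 0.0435). Pngl, the counterpart of the glycanase that activates the mammalian factor, had 672, 676, 640 and 704 in ecd-RNAi libraries, against 765, 777, 779 and 752 in control libraries, and fell by 0.19 (SE 0.04, adjusted p = 0.00324). These are transcript levels, and the activity of the cnc protein was not measured.

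The COP9 signalosome, a complex related to the lid in structure that removes Nedd8 from ubiquitin ligases, was mixed: of 8 tested genes 4 fell and 2 rose. CSN8 had 479, 453, 426 and 469 normalized counts in ecd-RNAi libraries, against 687, 683, 649 and 734 in control libraries, a fall of 0.59 (SE 0.06, limma adjusted p = 8.66e-06). CSN7 and alien each fell by 0.27 (SE 0.05) and CSN1b by 0.22 (SE 0.05). The catalytic subunit gene CSN5 (0.15, SE 0.06, adjusted p = 0.0401) and CSN6 (0.14, SE 0.05, adjusted p = 0.0374) passed in the higher direction. Each overlapped between groups and was lost without any of several single libraries, CSN5 without ecd-RNAi replicate 1, 3 or 4 or control replicate 1, 2 or 3, and CSN6 without ecd-RNAi replicate 1, 2 or 4 or control replicate 2 or 3. On recentring CSN5 stood at 0.06 and CSN6 at 0.05 (adjusted p = 0.365 and 0.433), and neither passed with no filter on low values (0.0516 and 0.0512). The authors' deposited table calls neither (0.15, adjusted p = 0.0604, and 0.14, adjusted p = 0.0793).

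**Figure D5:**
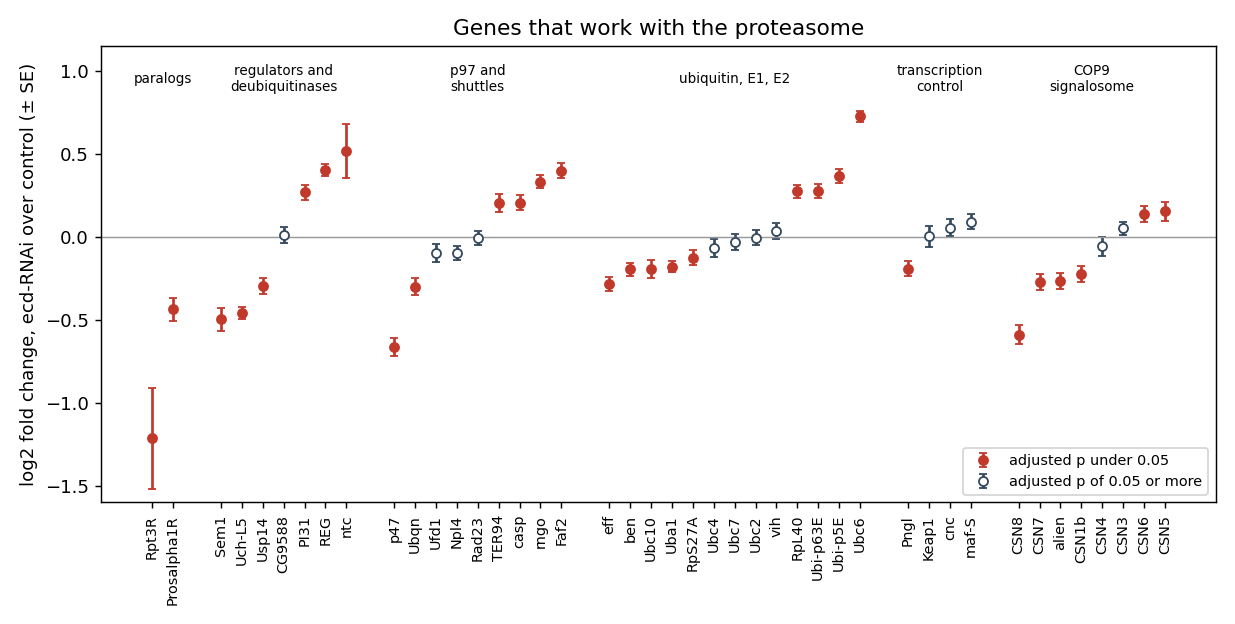
Log2 fold change, ecd-RNAi over control, with its standard error (vertical axis), of tested genes that work with the proteasome, in 6 lists. Filled circles passed an adjusted p of 0.05, and open circles did not: 17 filled points lie below 0 and 13 above, with Rpt3R at -1.21 the lowest and Ubc6 at 0.73 the highest.

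The fly genome also holds paralogs of many subunits, several of which are known as testis genes. Of 15 listed, 13 had a mean below 10 normalized counts and were not tested, and the other two, Prosalpha1R and Rpt3R, fell. Rpt3R, a paralog of Rpt3, had 13.1, 27.6, 16.7 and 32.5 normalized counts in ecd-RNAi libraries, against 42.4, 62.4, 60.7 and 39.6 in control libraries (log2 fold change -1.21, SE 0.30, limma adjusted p = 0.00563).

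At very low levels 5 of the 13 paralogs below the filter were listed higher in every ecd-RNAi library than in any control library. The same held for 8.79% of the 5712 gene rows below the filter with a value above 0, and for 28.0% of tested genes. Prosbeta4R1 had 10.4, 14.7, 5.81 and 9.42 normalized counts in ecd-RNAi libraries, against 0, 1.19, 0 and 0 in control libraries. Prosbeta4R2, its neighbour on 2L, had 8.57, 9.72, 9.59 and 7.08 in ecd-RNAi libraries, against 0, 1.67, 1.95 and 0 in control libraries. Prosbeta2R2 had 8.68, 3.92, 9.97 and 8.51 in ecd-RNAi libraries, against 0, 1.2, 0 and 1.13 in control libraries. In the same direction Prosbeta5R1 had 3.92 to 10.8 in ecd-RNAi and 0 to 1.19 in control libraries, and Rpn12R had 0.854 to 2.59 in ecd-RNAi libraries and 0 in every control library. With no filter on low values 5 of the 13 were called higher, and these were the same 5 (limma adjusted p from 0.000109 to 0.003). Of all rows below the filter 11.4% were called higher in that setting. Both criteria use the same values, so the second adds no separate support to the first. Rpn12R, at 2.59 or less in every library, rests on a few reads. The testis markers Mst87F (13.9, 14.8, 24.2 and 17.4 in ecd-RNAi libraries, 1.02, 1.19, 0 and 4.5 in control libraries) and dj were also higher, while bam, can and aly overlapped between groups. The relation of these markers to the paralogs was not tested.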

How the data were processed

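RNA of 8 wing disc libraries, 4 per group, was analysed. The authors deposited normalized counts, a signal per gene that is never negative and not whole. Their comparison, deposited as a further table, gives log2 fold changes with standard errors, a test score and p-values, per the file headers. Per the submitters' processing notes, FastQC, cutadapt 3.5, kallisto 0.46.1 and DESeq2 1.34.0 were used, with BDGP6; the sources used here give no settings, transcript set or strand use. Per the labels, libraries were made from 2 µg of RNA with a stranded kit that depletes rRNA, and the labels disagree on single-end or paired-end reads of 100 bp.

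The table held 23932 rows, 18354 of them genes. Low values lay near steps worth 1 read, but of the values worth 20 reads or fewer, 71.7% to 84.8% per library lay within 0.1 of a whole number, so whole reads were not recovered and no count model was run. Depths are approximations from these steps.

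Genes averaging 10 normalized counts or more were tested with limma 3.58.1 in R 4.3.3 (lmFit and trended eBayes, two-sided tests) on log2(value + 1), with all 8 libraries and no covariate. Benjamini-Hochberg adjustment ran over all 9380 genes tested, with a threshold of 0.05. The fit was run on simulated data with normal noise and far fewer changed genes than were called here, so that run does not measure the error rate of these calls. Because fold changes are on the log2(value + 1) scale, they understate changes of low genes; means carry the SD over 4 libraries. Libraries of a group are biological replicates per the labels. The p-values set the group difference against the spread of libraries within groups, moderated by a mean trend over all tested genes.

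Coordinates are 1-based, from the Ensembl annotation of BDGP6, and introns are gaps in the union of a gene's exons. Of 138 listed genes 135 were matched by symbol and 2 by synonym; Ecm29 was not. An item of the ubiquitin list is not reported here. The members and the lists were chosen with earlier results of these data known. Values are given for all 33 members, for ecd, for genes overlapping a member, and for up to 4 genes past the threshold in each list with the largest changes; values of further list genes (Usp14, PI31, CG9588, TER94, casp, cnc, maf-S, Keap1, CSN5 and CSN6) and the ATPase ratios were chosen after they were seen. Alternatives were quantile normalization, recentring, rescaling, pseudocounts of 0.5 and 10, filters of none and 50, no mean trend, a replicate block, and leaving out each library. Leaving out ecd-RNAi replicate 4 and control replicate 2 together, and summing Prosalpha1 with Prosalpha1R, were added after values were seen.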

Additional observations from a re-analysis of the deposited data

Results flagged for a closer look

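In groups of 4 libraries, a value is given here when its gap to the nearest other value, as a share of the whole range, passed Dixon's 95% limit. This held for 11 of 154 groups, and chance flags about 1 in 20. Among the proteasome genes, Rpn6 was at 3397 normalized counts in ecd-RNAi replicate 2, above 2997 to 3007 in the other ecd-RNAi libraries. Prosbeta2 was at 2443 in control replicate 1 (others 2504 to 2510), Rpn1 at 4874 in control replicate 3 (others 5206 to 5241) and Rpn10 at 2554 in control replicate 2 (others 2654 to 2670). The Prosbeta2, Rpn1 and Rpn10 calls held without each of those libraries, and so did that of Rpn6.

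Of genes that work with the proteasome, control replicate 3 was low for Sem1 at 1106 (others 1248 to 1263), Ufd1 at 778 (others 895 to 910) and CSN3 at 1023 (others 1090 to 1104). Control replicate 2 was low for CSN4 at 1020 (others 1158 to 1181). In ecd-RNAi libraries, Npl4 was at 1695 in replicate 3 (others 1826 to 1830), Ubc6 at 2976 in replicate 1 (others 3120 to 3147) and Ubc7 at 901 in replicate 2 (others 970 to 981).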

How the results depend on the processing

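Of 33 proteasome genes 17 were called lower in all 20 settings, the authors' deposited table included; the count of 27 ran from 25 to 28 when single libraries were left out (0 higher in each). Quantile normalization gave 17 lower and 1 higher, and recentring on the median gave 30 lower. Recentring moved the split of all tested genes to 3691 lower and 2285 higher, against 2970 and 2889, and that of the 6 accessory lists to 22 and 9, against 17 and 13. Without single libraries all tested genes gave 2718 to 2856 lower and 2633 to 2773 higher, the accessory lists 16 to 18 and 10 to 12, and ecd a log2 fold change of 0.35 to 0.44. The summed proteasome level, which fell by 17.1% against control, was 1.10 times control as a share of all gene signal. Signs turned for Prosalpha1 (-0.40 without control replicate 3, -0.42 summed with Prosalpha1R, -0.14 in the authors' deposited table). With quantile normalization they turned for Prosalpha6 (0.0227), Prosbeta7 (0.0391), Rpt1 (0.0781) and Rpt6 (0.0366), and with recentring for Rpt4 (-0.0828), Rpn2 (-0.0574) and cnc (-0.0381). Rpt4 also turned without ecd-RNAi replicate 1 (-0.0124) or 2 (-0.0426) or control replicate 2 (-0.0194) or 3 (-0.000685). Without single libraries Rpt4 ran from -0.0426 to 0.0459 and Prosalpha1 from -0.40 to 2.60. The cause was not tested. With the replicate number as a block, 26 proteasome genes fell and Prosalpha6 was lost (adjusted p = 0.0648). Same-numbered libraries correlated at -0.05 to 0.05 in their deviations, within the -0.08 to 0.07 of libraries with different numbers. No shared effect of the number was seen, but these values cannot show whether libraries were collected in pairs. Depth limits the paralogs near 1 read.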
